A study of Mus musculus with 6 samples.

Results

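The genes examined here encode the enzymes that build cholesterol and fatty acids in the cell. Others encode the sterol-sensing proteins that set their transcription, and the cholesterol carrier Stard4. The list holds 35 genes, chosen by name for their place in the pathway, and 34 of them had a probe set annotated to that gene alone, among 18194 genes measured in all. Acat2 had no such probe set and was not analysed here. Whole mouse embryos at embryonic day 9.5 were hybridized to Affymetrix mouse expression arrays, 1 embryo per array. The 3 RFC1-/- embryos were homozygous for a targeted inactivation of RFC1 (Slc19a1), the reduced folate carrier, and were described as affected by an open neural tube (craniorachiscisis) with no chorioallantoic fusion. The 3 RFC1+/+ embryos were normal littermates, 1 for each RFC1-/- embryo, from 3 litters of heterozygous parents. RFC1-/- embryos on this folate dose had been described as developmentally delayed at mid-gestation. Littermates share an age but may differ in stage, and stage and genotype cannot be told apart here. All embryos shared the inbred SWV background onto which the allele had been moved, and mothers that received 25 mg/kg folic acid each day by injection from the start of gestation, so no group without added folate was measured. The allele is inactivated in every tissue, and membranes outside the embryo were taken off for genotyping.

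Cholesterol synthesis starts with the mevalonate pathway, in which acetyl-CoA units are joined and trimmed to isoprenoid units. These are joined to squalene, which is closed to lanosterol and then oxidized and reduced to cholesterol. Transcription of most of these enzymes, and of the enzymes that make, lengthen and desaturate fatty acids, is driven by the sterol regulatory element binding proteins (SREBPs), which are held in the endoplasmic reticulum by the Insig proteins while sterols are plentiful. In the embryo, cholesterol is also needed to modify hedgehog proteins, and mice or people without the late sterol enzymes have malformations of the face, limbs and brain.

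The Slc19a1 signal was 9.97, 10.10 and 9.84 (log2) in RFC1-/- embryos of litters 1, 2 and 3, against 9.11, 9.10 and 8.89 in their RFC1+/+ littermates, a rise of 0.93 (limma adjusted p = 0.00701). A probe set outside the inactivated part does not check the genotype, and the missing part is unknown here, so genotypes are those of the labels. Array medians lay between 5.43 and 5.49. Markers of the embryo were set beside 5.47, the median of all probe set means, which is not a limit of detection. All 8 cardiomyocyte markers lay above it in both groups. Of 16 neural progenitor markers 14 did in RFC1-/- embryos and all 16 in RFC1+/+ embryos. Of 14 measured primitive erythroid markers 6 did in RFC1-/- embryos and 10 in RFC1+/+ embryos. Of 8 markers of paraxial mesoderm and somites 6 did in each group. Over all 18194 genes, limma with the litter as a block called 968 (5.32%), of which 667 were higher (3.67%) and 301 lower (1.65%) in RFC1-/- embryos at an adjusted p under 0.05.

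Short sequence elements recur in the promoters of the cholesterol genes, and their part in the expression differences between the embryos was not tested. RefSeq held promoter windows for 27 of the 34 measured genes. In the 250 bases before the annotated start (GRCm38.p6), the motif CCAAT, read on either strand and known as the core of NF-Y binding sequences, was found at all 14 of the 14 mevalonate and sterol genes with a window, and at 39.4% of the 14453 genes on the arrays with one. A gene with several starts has several windows, and by window the motif was in 14 of 17 of these genes' windows and in 23 of 36 over the pathway, beside 34.7% of 18110 windows. The motif TCACNCCAC, a form of the sterol regulatory element, was found at 1 of the 27 genes, Hmgcs1, and at 1.27% of all genes with a window. Other forms of this element were not searched. The GC box GGGCGG was found at 22 of the 27 genes and at 53.4% of all genes with a window, or by window in 25 of 36 beside 48.3%. Below are windows of Hmgcs1, Msmo1, Nsdhl and Insig1. Hmgcs1 held the TCACNCCAC match (chr13:119690101-119690350, plus strand). Msmo1 had the most negative mean difference of the 17 measured mevalonate and sterol genes (chr8:64733579-64733828, minus strand). Nsdhl had their lowest adjusted p (chrX:72918271-72918520, plus strand), and Insig1 was the most negative regulator (chr5:28071162-28071411, plus strand). Capitals mark matches to TCACNCCAC and to the CCAAT motif, the latter in reverse complement where it lies on the other strand. None overlapped a GC box.
Hmgcs1: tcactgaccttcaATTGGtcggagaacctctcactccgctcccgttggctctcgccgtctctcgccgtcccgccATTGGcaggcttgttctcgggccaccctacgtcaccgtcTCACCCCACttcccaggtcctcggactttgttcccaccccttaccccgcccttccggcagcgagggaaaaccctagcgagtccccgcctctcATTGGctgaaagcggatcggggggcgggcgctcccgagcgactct
Msmo1: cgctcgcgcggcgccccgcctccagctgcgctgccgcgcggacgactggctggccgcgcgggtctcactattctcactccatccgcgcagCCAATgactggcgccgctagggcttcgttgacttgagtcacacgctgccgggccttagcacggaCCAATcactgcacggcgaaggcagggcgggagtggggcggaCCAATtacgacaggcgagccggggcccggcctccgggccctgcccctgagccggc
Nsdhl: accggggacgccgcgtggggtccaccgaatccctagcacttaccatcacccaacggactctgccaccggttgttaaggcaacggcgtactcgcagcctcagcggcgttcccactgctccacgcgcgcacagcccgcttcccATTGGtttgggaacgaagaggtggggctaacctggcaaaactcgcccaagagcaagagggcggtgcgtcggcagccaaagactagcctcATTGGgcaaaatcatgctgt
Insig1: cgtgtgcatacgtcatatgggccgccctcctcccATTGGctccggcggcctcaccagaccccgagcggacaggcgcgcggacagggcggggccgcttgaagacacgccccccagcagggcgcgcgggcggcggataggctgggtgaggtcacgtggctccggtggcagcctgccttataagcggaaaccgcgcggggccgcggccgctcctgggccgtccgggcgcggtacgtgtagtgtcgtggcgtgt
Hmgcs1 and Msmo1 each carried 3 CCAAT matches, Nsdhl carried 2 and Insig1 carried 1. A match is a stretch of letters and was not tested for binding. All 14 mevalonate and sterol genes with a window carried CCAAT, so none without it was there for comparison. Among them Ebp, Hsd17b7 and Pmvk had mean log2 differences (RFC1-/- minus RFC1+/+) of -0.05, -0.06 and -0.08, and Msmo1 and Nsdhl both had -0.54.

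Scd1 was the gene of this pathway that changed past the test. It encodes stearoyl-CoA desaturase, which turns saturated stearate into oleate. Scd1 measured 9.27, 8.87 and 8.64 (log2) in RFC1-/- embryos of litters 1, 2 and 3, against 9.88, 10.20 and 10.39 in the RFC1+/+ embryos. All 3 RFC1-/- values lay below all 3 RFC1+/+ values. RFC1-/- embryos averaged 8.93 ± 0.32 and RFC1+/+ embryos 10.16 ± 0.26 (SD over 3 embryos of each genotype), so that Scd1 fell 2.34-fold (log2 difference -1.23 ± 0.20 standard error, SE, limma adjusted p = 0.0225). The litter differences were -0.61, -1.33 and -1.75. Without litter 2 the adjusted p from limma was 0.0524, with a log2 difference of -1.18. A dimmer Scd1 probe set had a log2 difference of -0.60, with litter differences of -0.28, -0.52 and -1.01 (limma adjusted p = 0.0970 among all probe sets).

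**Figure D1:**
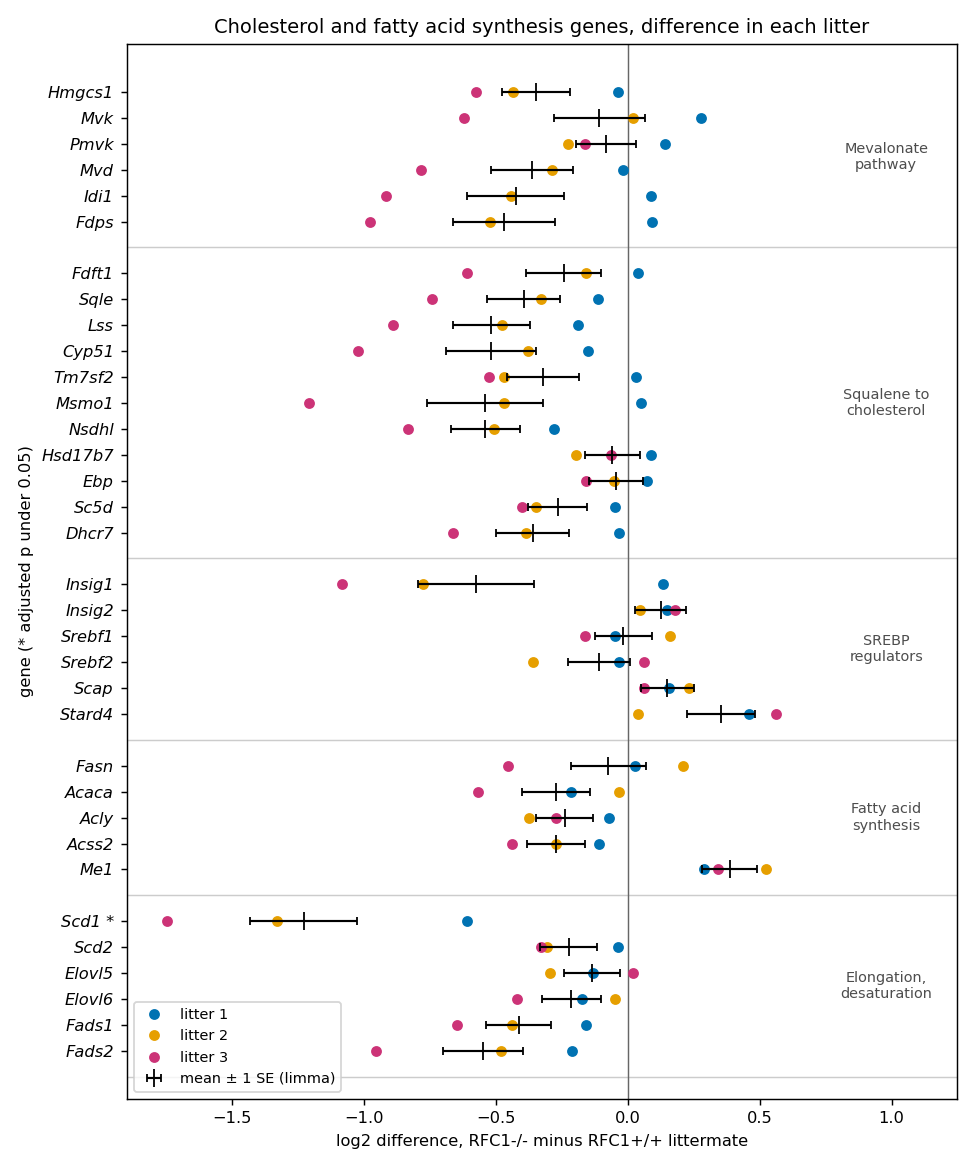
RFC1-/- minus RFC1+/+ within litters, log2 scale (x axis), for 34 pathway genes grouped by step (y axis). Each litter has its colour, and black symbols give the limma mean ± 1 standard error. Of the means, 30 of the 34 lie below 0, from -1.23 for Scd1 to 0.39 for Me1.

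Of the 34 measured genes, 1 fell and none rose at an adjusted p under 0.05 in limma, where 1.65% and 3.67% of all genes did (5.32% in either direction), and 33 did not pass. At an unadjusted p under 0.05, 13 of the 34 had lower values and 2 had higher values in RFC1-/- embryos, against 8.05% and 10.4% of all genes. The random-variance paired test of the methods, run here at 0.05 without their 1.5-fold variation filter, also called Scd1 lower and none higher. Its adjusted p for Scd1 was 0.0293, not past the 0.001 level of the methods. The median log2 difference of the 34 genes was -0.27, beside -0.01 over all genes, and 30 of the 34 means lay below 0, beside 54.0% of all genes. In 13 of the 34 genes all RFC1-/- values lay below all RFC1+/+ values, a pattern held by 13.4% of all genes, and in 1 gene, Stard4, they lay above, a pattern held by 12.8%. In RNA of whole embryos, fewer cells of a type and less RNA per cell cannot be told apart.

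Markers of cell types also differed between these embryos, and their part in the values below was not tested. Of 30 measured visceral endoderm markers, 29 rose in RFC1-/- embryos, and Alb, below 5.47 in both genotypes, did not pass. The summed linear signal of the 30 lay between 30300 and 80200 in RFC1-/- embryos and between 4980 and 9120 in RFC1+/+ embryos. Their median log2 differences in litters 1, 2 and 3 were 2.33, 1.88 and 4.30. Some of these markers, among them Apoa1, Cubn and Ttr, had already been reported as raised in these arrays. Of 16 neural progenitor markers 13 fell, with a summed signal between 3480 and 6110 in RFC1-/- embryos and between 9000 and 9920 in RFC1+/+ embryos, and median differences of -1.01, -0.90 and -1.54. Of 14 measured primitive erythroid markers 9 fell, with median differences of -2.35, -1.93 and -1.10. Of 8 cardiomyocyte markers 7 rose, and of 8 markers of paraxial mesoderm and somites 4 fell. Of 6 measured trophoblast markers 1, Krt7, rose, and only 3 of the 6 lay above 5.47 in each genotype. Over all genes 3.67% were called higher and 1.65% lower.

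The mevalonate pathway was near the same level in the RFC1-/- and RFC1+/+ embryo of litter 1 and lower in the RFC1-/- embryo of litter 3. Hmgcs1, which makes HMG-CoA, measured 12.57, 12.44 and 12.22 in the RFC1-/- embryos of litters 1, 2 and 3, against 12.61, 12.88 and 12.79 in the RFC1+/+ embryos. On this brightest probe set the groups did not overlap, but the values of litter 1 were close (log2 difference -0.35 ± 0.13 SE, limma adjusted p = 0.208). The other Hmgcs1 probe sets had means of -0.31, -0.35, -0.21 and -0.24. Their litter 1 differences were 0.17, 0.19, 0.63 and 0.18, so on them the groups overlapped. Fdps, which makes farnesyl diphosphate, measured 8.36, 8.26 and 7.90 in RFC1-/- embryos, against 8.27, 8.79 and 8.87 in RFC1+/+ embryos. Here the groups overlapped, since the RFC1+/+ embryo of litter 1 lay below its littermate (log2 difference -0.47, limma adjusted p = 0.260). Idi1, the isopentenyl diphosphate isomerase, had litter differences of 0.09, -0.44 and -0.92, and Mvd, the mevalonate diphosphate decarboxylase, had -0.02, -0.29 and -0.78. The kinases Mvk and Pmvk had the smallest means of this step, -0.11 and -0.08. None of the 6 measured genes passed, all 6 means lay below 0, and the median was 0.09, -0.36 and -0.70 in litters 1, 2 and 3.

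Among the enzymes from squalene to cholesterol the differences of litter 3 were again the lowest in median. Nsdhl, an X-linked dehydrogenase that helps to remove the methyl groups of lanosterol, measured 9.65, 9.72 and 9.39 in RFC1-/- embryos, against 9.93, 10.23 and 10.23 in RFC1+/+ embryos. The groups did not overlap, and each RFC1-/- embryo lay below its littermate (log2 difference -0.54 ± 0.13 SE, 95% confidence interval -0.85 to -0.23, limma adjusted p = 0.0662). This was the lowest adjusted p among the 33 genes that did not pass, and without the litter as a block it was 0.0416, past the threshold. Lss, which closes squalene epoxide to lanosterol, measured 8.33, 8.41 and 8.12 in RFC1-/- embryos, against 8.52, 8.88 and 9.01 in RFC1+/+ embryos. Every RFC1-/- embryo was again below every RFC1+/+ embryo (log2 difference -0.52, limma adjusted p = 0.106), while the dimmer Lss probe sets differed by 0.13 and -0.13. Cyp51, the lanosterol demethylase, had litter differences of -0.15, -0.38 and -1.02 (mean -0.52, limma adjusted p = 0.157), and its other probe sets differed by -0.25 and -0.48.

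Msmo1, a methyl sterol oxidase, showed the litters furthest apart among these enzymes. It measured 9.83, 9.67 and 9.25 in the RFC1-/- embryos of litters 1, 2 and 3, against 9.78, 10.14 and 10.46 in the RFC1+/+ embryos. In litter 1 the littermates were close, and in litter 3 they differed by -1.21 (mean -0.54 ± 0.22 standard error, limma adjusted p = 0.252). Sqle, the squalene epoxidase that limits the rate of this branch, differed by -0.11, -0.33 and -0.74, and Dhcr7, the reductase of the final step, by -0.03, -0.39 and -0.66, both without overlap of the groups. Tm7sf2, Sc5d and Fdft1, a sterol reductase, a sterol desaturase and squalene synthase, had means of -0.32, -0.27 and -0.24. Hsd17b7, a sterol reductase, and Ebp, a sterol isomerase, lay nearest to 0, at -0.06 (95% confidence interval -0.31 to 0.19) and -0.05 (-0.29 to 0.20). All 11 means lay below 0, none passed, and the median was -0.03, -0.38 and -0.66 in litters 1, 2 and 3.

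**Figure D2:**
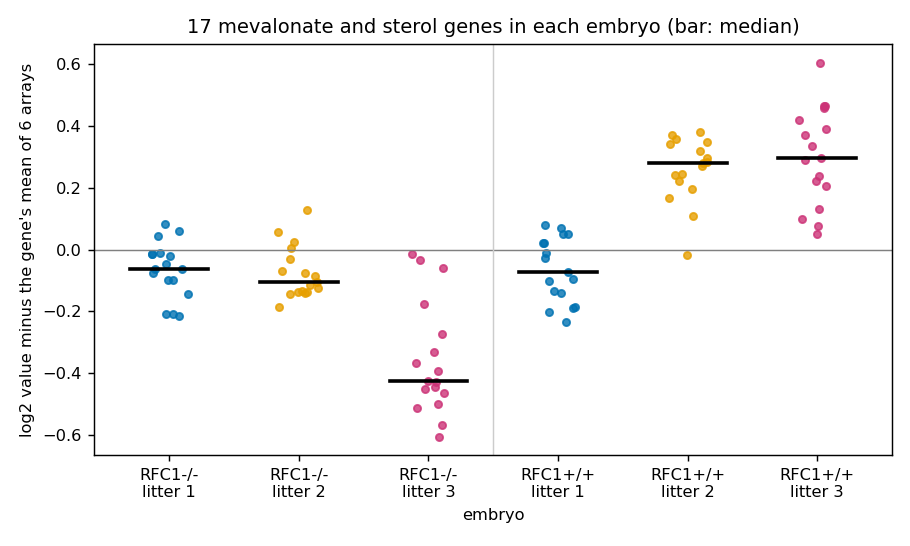
Log2 value of each of the 17 measured mevalonate and sterol genes minus that gene's mean over the 6 arrays (y axis), for each embryo (x axis). Points are genes, bars the medians, lowest at -0.42 in the litter 3 RFC1-/- embryo and highest at 0.30 in the litter 3 RFC1+/+ embryo.

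Most of the 17 mevalonate and sterol genes had their lowest value in the same embryo. Relative to each gene's mean over the 6 arrays, their median was -0.06, -0.10 and -0.42 in the RFC1-/- embryos of litters 1, 2 and 3, against -0.07, 0.28 and 0.30 in the RFC1+/+ embryos. The RFC1+/+ embryo of litter 1 thus stood at the level of the RFC1-/- embryos of litters 1 and 2, and the RFC1-/- embryo of litter 3 stood below all others. That RFC1-/- embryo held the lowest of the 6 values in 14 of the 17 genes, as it did in 23.2% of all genes. The RFC1+/+ embryo of litter 1 was the lowest RFC1+/+ embryo in 16 of the 17, beside 37.8% of all genes. Litter 1 held the highest difference in all 17 and litter 3 the lowest in 15 of them, beside 31.3% and 39.2% of all genes. These counts were chosen after the values were seen, and the 17 genes share their arrays, so they describe these 6 embryos. On the same measure the visceral endoderm markers had medians of 1.60, 0.47 and 2.19 in the RFC1-/- embryos of litters 1, 2 and 3, against -0.87, -1.63 and -1.65 in the RFC1+/+ embryos. The neural progenitor markers had -0.47, -0.15 and -0.95 in RFC1-/- embryos, against 0.54, 0.70 and 0.38 in RFC1+/+ embryos. The RFC1-/- embryo of litter 3 was thus at the extreme in both marker lists as well. The RFC1+/+ embryo nearest to the RFC1-/- embryos was that of litter 1 in visceral endoderm markers, but that of litter 3 in neural progenitor markers. The part of these cell types in the order of the embryos was not tested.

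**Figure D3:**
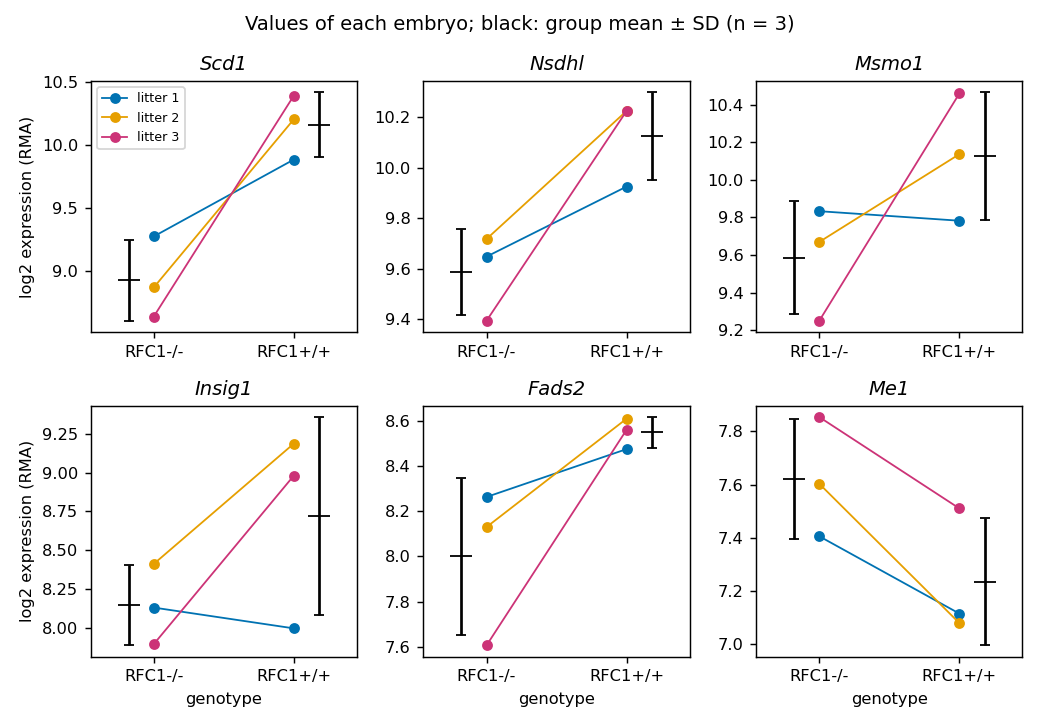
Log2 expression (y axis) of 6 genes in RFC1-/- and RFC1+/+ embryos (x axis), with lines joining littermates and black bars showing the mean and SD of 3 embryos. Scd1, Nsdhl and Fads2 separate by genotype, Msmo1 and Insig1 do so in litters 2 and 3 and not in litter 1, and Me1 is higher in each RFC1-/- embryo than in its littermate.

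Among the regulators, Insig1 had the most negative mean, and the SREBP genes themselves lay near 0. Insig1, which holds SREBPs in the endoplasmic reticulum and is itself a transcriptional target of SREBP, measured 8.13, 8.41 and 7.90 in RFC1-/- embryos, against 7.997, 9.19 and 8.98 in RFC1+/+ embryos. The RFC1+/+ embryo of litter 1 was again among the low values (log2 difference -0.58 ± 0.22 SE, limma adjusted p = 0.221). The Insig1 difference was -0.93 without litter 1 (limma adjusted p = 0.0353). It was -0.48 without litter 2 and -0.32 without litter 3 (limma adjusted p = 0.47 and 0.434). Its relative Insig2 differed by 0.12, with 0.15, 0.05 and 0.18 in the litters (95% confidence interval -0.11 to 0.36). Whether Insig1 and Insig2 differ from each other was not tested. Srebf1 and Srebf2, the SREBP genes, had means of -0.02 (95% confidence interval -0.27 to 0.24) and -0.11 (-0.39 to 0.17). Scap, the escort of SREBP to the Golgi, differed by 0.15 (-0.09 to 0.39).

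Stard4, a carrier of cholesterol between membranes, was grouped here with the regulators. It had the highest of the 3 means above 0 in this group, with Scap and Insig2. It measured 8.91, 8.63 and 9.06 in RFC1-/- embryos, against 8.45, 8.59 and 8.50 in RFC1+/+ embryos. The groups did not overlap, though litter 2 was close (log2 difference 0.35 ± 0.13 SE, limma adjusted p = 0.201), and its other probe sets differed by 0.30 and 0.39. None of the 6 genes of this group, Stard4 among them, passed, with 3 means below 0 and 3 above, and a median of 0.05.

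In fatty acid synthesis, the genes that supply acetyl-CoA and NADPH had means on both sides of 0. Me1, malic enzyme, which supplies NADPH, measured 7.41, 7.60 and 7.85 in the RFC1-/- embryos of litters 1, 2 and 3, against 7.12, 7.08 and 7.51 in the RFC1+/+ embryos. Each RFC1-/- embryo lay above its littermate, while the groups overlapped (log2 difference 0.39 ± 0.10 SE, limma adjusted p = 0.0904), and the other Me1 probe set also differed by 0.39. Acly and Acss2, which make acetyl-CoA from citrate and from acetate, had means of -0.24 and -0.27 and no overlap of the groups (limma adjusted p = 0.302 and 0.243). Acaca, the acetyl-CoA carboxylase, also had a mean of -0.27 and no overlap. Fasn, the fatty acid synthase, measured 10.25, 10.49 and 9.93 in RFC1-/- embryos, against 10.22, 10.28 and 10.38 in RFC1+/+ embryos, and the groups overlapped (log2 difference -0.07, 95% confidence interval -0.41 to 0.27). None of these 5 genes passed.

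The enzymes that lengthen and desaturate fatty acids held Scd1 and the desaturases of polyunsaturated fatty acids. Fads2, a desaturase of polyunsaturated fatty acids, measured 8.26, 8.13 and 7.61 in RFC1-/- embryos, against 8.48, 8.61 and 8.56 in RFC1+/+ embryos. The groups did not overlap, and the RFC1-/- embryo of litter 3 was the lowest (log2 difference -0.55 ± 0.15 SE, limma adjusted p = 0.0991), with -0.46 and -0.52 on its other probe sets. Fads1, the partner desaturase, measured 9.81, 9.80 and 9.47 in RFC1-/- embryos, against 9.97, 10.24 and 10.12 in RFC1+/+ embryos. It too showed no overlap (log2 difference -0.41 ± 0.12 SE, limma adjusted p = 0.120). Scd2, the stearoyl-CoA desaturase of the embryo and brain in mice, differed by -0.22 on its brightest probe set (limma adjusted p = 0.349) and by -0.44 and -0.74 on dimmer ones. With the mean of its probe sets, Scd2 had a difference of -0.47 and passed (limma adjusted p = 0.0392). The elongases Elovl6 and Elovl5, which act on palmitate and on polyunsaturated fatty acids, had means of -0.21 and -0.14. All 6 means of this step lay below 0 and 1 gene, Scd1, fell.

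Probe sets of the same gene mostly ran the same way. Of the 34 genes, 25 had more than 1 probe set, 79 in all, and of the 45 further probe sets 38 had the sign of the brightest. Over all probe sets, where 0.882% were called lower and 1.87% higher, 1 of the 79 was called, the brightest of Scd1.

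**Figure D4:**
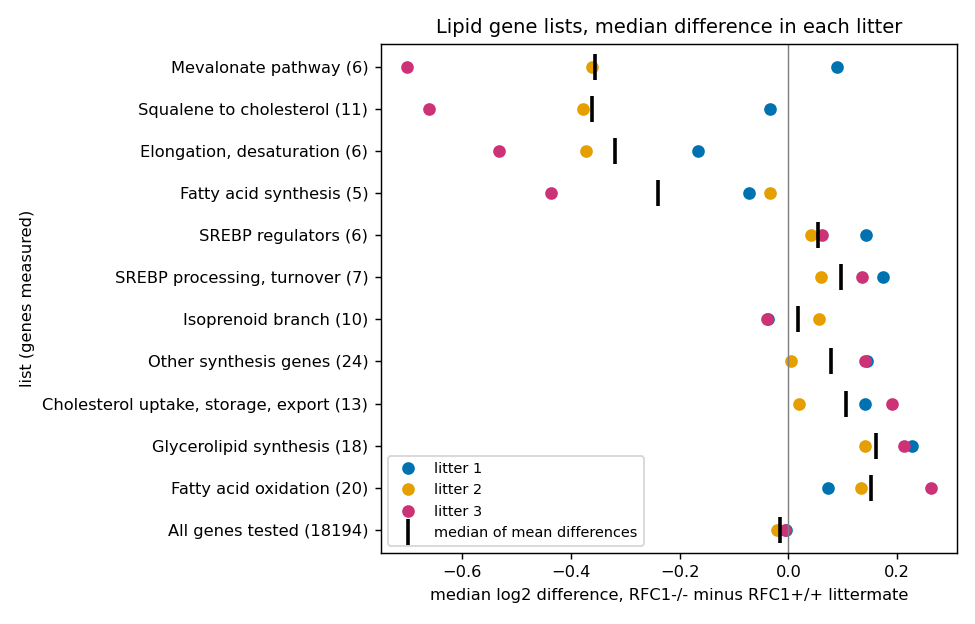
Median log2 difference between littermates (x axis) of lists of lipid genes (y axis, with the genes measured in brackets). Colours mark the 3 litters, and black bars mark medians over the genes' means, which lie at -0.36 for both cholesterol steps and at 0.15 for fatty acid oxidation.

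In neighbouring lists of lipid genes, 4 genes of synthesis, uptake and export passed, all higher in RFC1-/- embryos, where 3.67% of all genes were called higher and 1.65% lower. Mylip, a ubiquitin ligase that marks the LDL receptor for breakdown, rose 1.93-fold, with 9.505, 9.04 and 9.89 in the RFC1-/- embryos of litters 1, 2 and 3, against 8.83, 8.19 and 8.59 in the RFC1+/+ embryos (log2 difference 0.95 ± 0.14 SE, limma adjusted p = 0.0153). Npc1, which exports cholesterol from lysosomes, rose 1.39-fold (log2 difference 0.47, limma adjusted p = 0.0461). Both genes were higher in each RFC1-/- embryo than in its littermate. These were 2 of the 13 measured genes of cholesterol uptake, storage and export, of which none fell, with a median of 0.11. Elovl1 and Elovl7, elongases of long and very long fatty acids, rose 1.58-fold and 1.62-fold (limma adjusted p = 0.0203 and 0.0233), as 2 of the 24 measured genes of the remaining synthesis list, of which none fell and whose median was 0.08. No gene passed among the 7 measured genes of SREBP processing and turnover, of which 1 had higher values and 0 lower values at an unadjusted p under 0.05, and none among the 10 of the isoprenoid branch, with 1 higher and 1 lower, beside 10.4% and 8.05% of all genes. Their medians were 0.10 and 0.02.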

How the data were processed

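The authors deposited log2 expression values, 1 per probe set and array, made by robust multiarray averaging (RMA) with background correction, quantile normalization and median polish. The table held 45101 probe sets and 0 unused columns, and the sources used here name no software versions for the array processing. Of the probe sets, 34958 carried 1 gene symbol in the platform annotation, and 0 symbols changed through the RefSeq gene table. Each gene was read on its brightest probe set over the 6 arrays. RFC1-/- minus RFC1+/+ was fitted for all 18194 genes with limma 3.58.1 in R 4.3.3, with the litter as a block, empirical Bayes moderation and Benjamini-Hochberg adjustment over all genes at 0.05. Litters pair the embryos in the labels and the methods, and the deviations of littermates from their group means correlated at 0.01, -0.03 and -0.20 in litters 1, 2 and 3. Tables used pandas 2.3.3 and numpy 2.4.6, and plots matplotlib 3.10.9, under Python 3.11.15. Scripts were tested on simulated data.

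Precision is limited by the number of arrays, which carry no depth. Levels were compared only within a probe set, apart from the choice of the brightest probe set, the bound of 5.47 and the summed marker signals. In those sums the brightest probe sets weigh most. The genes and lists were chosen with earlier results of these data known. Named genes were the called genes, their step, those with 1 sign in all litters and a mean beyond 0.5 in size, and up to 4 called genes per further list; other genes were named for their role after their values were seen. Alternatives were no block, an intensity trend, the random-variance paired test of the methods, their 1.5-fold variation filter, dim genes left out, a second quantile normalization, median centring, other choices of probe set, a level of 0.001, and each litter left out.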

Additional observations from a re-analysis of the deposited data

How the results depend on the processing

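Scd1 was called lower and no gene of the pathway higher under every alternative except 2: without litter 2 no gene was called lower, and none passed the 0.001 level of the methods. The count of genes called lower was 2, with Nsdhl added, without the replicate block, with an intensity trend and with a second quantile normalization, and 2, with Scd2 added, when probe sets were averaged per gene. Leaving out each litter gave between 0 and 2 genes lower, with Insig1 added without litter 1. Over those runs the median log2 difference of the genes ranged from -0.36 to -0.19, and the calls over all genes from 355 (without litter 1) to 1199. With the 1.5-fold variation filter, which keeps genes that vary, 537 of 1453 genes were called, and the median was -0.56 over the 4 genes of the pathway it kept (Msmo1, Insig1, Scd1 and Fads2). Over all alternatives the Scd1 difference ranged from -1.54 to -0.92. Of the single genes not called, 6 changed sign in 1 run each. With each litter left out, Mvk ranged from -0.301 to 0.148, Hsd17b7 from -0.131 to 0.0110, Ebp from -0.105 to 0.0102, Srebf1 from -0.105 to 0.0559, Srebf2 from -0.195 to 0.0150 and Fasn from -0.214 to 0.117. With 3 pairs, standard errors of the 34 genes lay between 0.10 and 0.22, and the cause of these changes was not tested.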

Other observations

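In the lists of fatty acid oxidation and glycerolipid synthesis, 4 genes were called, all higher in RFC1-/- embryos. Calls over all genes were also mostly higher (3.67% higher and 1.65% lower). Acadm, the mitochondrial dehydrogenase of medium-chain fatty acids, measured 10.31, 10.09 and 10.48 (log2) in RFC1-/- embryos of litters 1, 2 and 3, against 9.66, 9.60 and 9.94 in the RFC1+/+ embryos, without overlap (log2 difference 0.56 ± 0.10 SE, limma adjusted p = 0.0275). Cpt1c, a neuronal member of the carnitine palmitoyltransferase family, rose by 0.59 on the log2 scale (limma adjusted p = 0.0387). Its part in fatty acid oxidation was not tested. Ppargc1a, a coactivator of oxidative genes, rose by 0.54 (limma adjusted p = 0.0367). Acadm, Cpt1c and Ppargc1a were the 3 called among 20 measured genes listed under fatty acid oxidation. None of the 20 fell, and their median log2 difference was 0.15. The Ppargc1a groups overlapped, and its RFC1+/+ mean of 5.17 lay below 5.47, the median of all probe set means. Of 18 genes of glycerolipid synthesis, Gpat3, an acyltransferase of its initial step, rose by 0.59 (limma adjusted p = 0.0363), none fell, and the median was 0.16.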
